A study of Mus musculus with 2 samples.

Results

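The mitochondrial ribosomal proteins were taken as every gene whose name in both scanner files began with Mrpl or Mrps and a number. This gave 75 of the 27962 genes named on the array, 46 of the large subunit (Mrpl) and 29 of the small subunit (Mrps), and all 75 were measured on both arrays. Their transcripts were compared between tumours of C57BL/6 mice housed in an enriched environment and tumours of C57BL/6 mice housed in a standard environment. The tumours were of Panc02, a pancreatic carcinoma cell line of the mouse, growing under the skin. All mice were 3 weeks old at the start, received the same tumour cells and were kept for 5 weeks after the injection. RNA of 6 tumours per housing was pooled, and each pool went onto 1 one-colour Agilent array. There was therefore no replicate of either housing, no spread between mice and no test between the housings, and precision is limited by having 2 arrays in all.

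Mitochondria keep a ribosome of their own, the mitoribosome, which translates the few proteins encoded in mitochondrial DNA. All of these proteins are subunits of the respiratory chain complexes or of ATP synthase. The proteins of the mitoribosome are encoded by nuclear genes, translated in the cytosol and imported. Some descend from proteins of the bacterial ribosome, and others are found only in mitochondria. The small subunit reads the mRNA, and the large subunit holds the peptidyl transferase centre and the exit tunnel for the new chain.

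A level below is the log2 intensity of a probe minus the 75th percentile of its array, averaged over the probes of a gene. A difference is the enriched minus the standard level, so that a value below 0 means a lower level in the enriched environment pool. Levels of different genes come from different probes and were not set against each other. Of the 43379 spots that were not controls, 77.4% on the enriched and 77.2% on the standard environment array were well above background. The carcinoma keratins were measured in both pools, with Krt18 at levels of 8.05 in the enriched and 6.47 in the standard environment pool.

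Transcripts of the mitochondrial ribosomal proteins were mildly lower in the enriched environment pool, nearly all in the same direction. Of the 75 genes, 70 had a difference below 0, against 48.0% of all 20261 measured genes. The median difference of the 75 genes was -0.37, or 1.29-fold lower, with quartiles at -0.62 and -0.15. Over all measured genes the median was 0.03, with quartiles at -0.40 and 0.38. The shift was small for single genes. A level at least 2-fold lower was seen in 3 of the 75, where 9.58% of all measured genes passed that threshold. None was at least 2-fold higher, where 5.77% of all genes were. At the milder threshold of 1.5-fold, 21 were lower, against 18.2% of all genes, and none was higher, against 15.0%. Together the 75 genes made up 0.581% of all probe signal in the enriched and 0.662% in the standard environment pool.

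**Figure D1:**
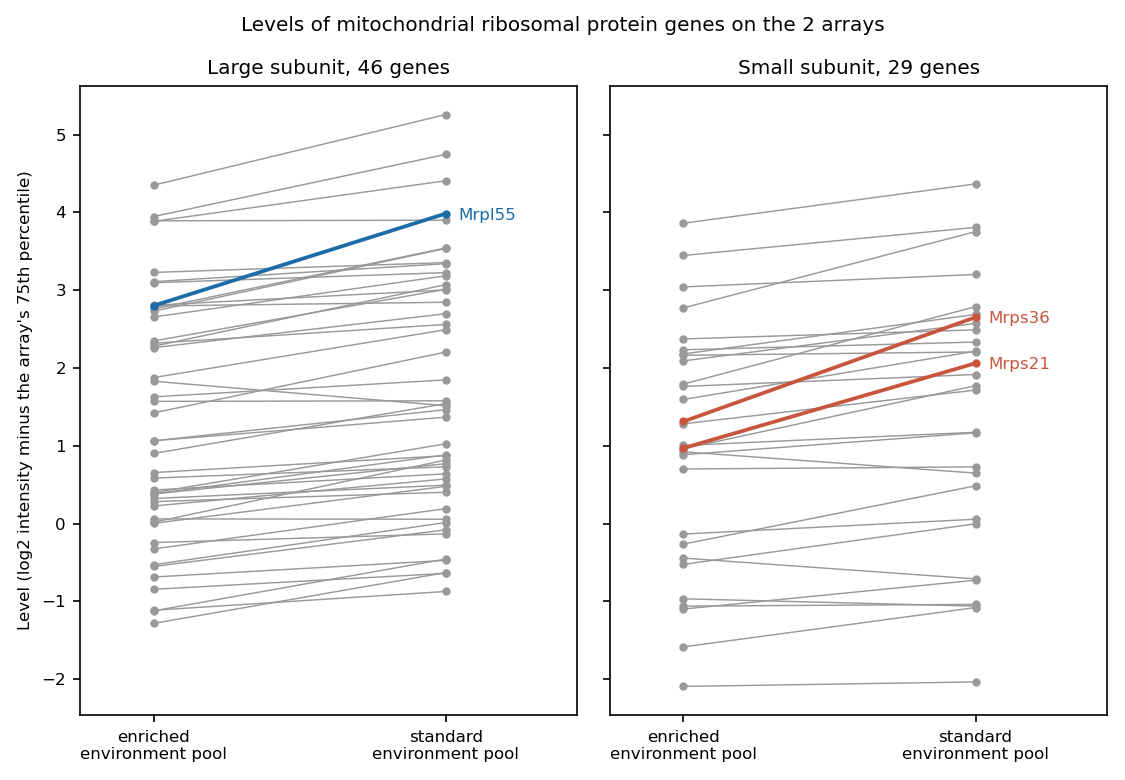
Level of each mitochondrial ribosomal protein gene (log2 intensity minus the array's 75th percentile) in the enriched environment pool (left point) and the standard environment pool (right point), 1 line per gene, for the 46 genes of the large and the 29 genes of the small subunit. Most lines climb towards the standard environment pool by a small step, and the 3 coloured genes, Mrpl55, Mrps36 and Mrps21, are those lower by at least 2-fold in the enriched environment pool.

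The gene furthest below its standard environment level was Mrps36. Its level was 1.31 in the enriched and 2.65 in the standard environment pool, a difference of -1.34 or 2.53-fold, and its probes at chr13:97844619-97844678 and chr13:97842012-97842071 (mm7) gave -1.55 and -1.13. Despite its name, the protein is now known as KGD4, which joins the subunits of the 2-oxoglutarate dehydrogenase complex of the tricarboxylic acid cycle and is not part of the mitoribosome. The other subunits of that enzyme complex were also lower in the enriched environment pool. The catalytic subunit gene Ogdh had a level of -0.35 in the enriched and 1.49 in the standard environment pool, a difference of -1.85. Dld, the dihydrolipoamide dehydrogenase, differed by -1.11, and Dlst, the succinyltransferase core, by -0.35.

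The other genes at least 2-fold lower belong to proteins with counterparts in the bacterial ribosome. Mrpl55 of the large subunit was at 2.80 in the enriched and 3.98 in the standard environment pool, a difference of -1.18 or 2.27-fold, from 1 probe at chr11:59287350-59287409 (mm7). Mrps21 of the small subunit was at 0.97 in the enriched and 2.06 in the standard environment pool, a difference of -1.09 or 2.13-fold, from 1 probe at chr3:95744503-95744562 (mm7). Just outside the threshold stood Mrps6, at 1.79 in the enriched and 2.79 in the standard environment pool, 1.99-fold lower. Next came Mrps28, at 2.77 in the enriched and 3.75 in the standard environment pool, 1.97-fold lower. The members inside and outside the threshold thus formed a continuous series, with no gap at 2-fold.

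To show the sequence context of the genes at either end of this range, the 150 bases before the annotated start are given for the 2 lowest and the 2 highest genes. They come from RefSeq on GRCm38.p6 and are written 5′ to 3′ on the gene's strand. Capitals mark a match to 1 of 3 short motif cores on either strand, CCGGAAG for ETS factors, GCATGCG for NRF1 and AAGATGG for YY1. These factors are textbook regulators of nuclear genes for mitochondrial proteins.
Mrps36 (difference -1.34; chr13:100744660-100744809, minus strand): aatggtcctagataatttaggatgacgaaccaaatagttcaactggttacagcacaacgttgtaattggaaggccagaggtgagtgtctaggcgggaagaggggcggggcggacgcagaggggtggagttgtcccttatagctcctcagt
Mrpl55 (difference -1.18; chr11:59202336-59202485, plus strand): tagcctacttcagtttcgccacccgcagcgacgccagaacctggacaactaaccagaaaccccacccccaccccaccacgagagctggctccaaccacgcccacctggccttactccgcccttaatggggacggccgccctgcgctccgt
Mrps22 (difference 0.27; chr9:98601680-98601829, minus strand): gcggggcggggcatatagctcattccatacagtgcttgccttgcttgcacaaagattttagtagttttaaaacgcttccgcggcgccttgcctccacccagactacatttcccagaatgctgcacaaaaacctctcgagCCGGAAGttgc
Mrpl52 (difference 0.31; chr14:54426759-54426908, plus strand): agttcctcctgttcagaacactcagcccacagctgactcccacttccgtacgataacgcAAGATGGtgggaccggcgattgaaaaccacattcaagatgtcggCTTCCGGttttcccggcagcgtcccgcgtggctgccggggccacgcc
The stretches before Mrps36 and Mrpl55 held none of the 3 cores. The stretch before Mrps22 held the ETS core, and that before Mrpl52 held an AAGATGG and, on the opposite strand, the ETS core.

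The same letters were searched in the whole promoter windows, 250 bases before to 50 bases after the start, of the 66 members listed in the RefSeq table. The ETS core was held by 24 of the 66, or 36.4%, against 9.93% of all 27025 genes in the table and 12.9% of the 17491 protein-coding genes. The YY1 core was held by 12, or 18.2%, against 7.28% of all and 7.18% of protein-coding genes. The NRF1 core was held by 8, or 12.1%, against 4.01% of all and 4.95% of protein-coding genes. At least 1 of the 3 cores was present in 53.0% of the members, in 19.3% of all genes and in 22.5% of protein-coding genes. The large (52.5%) and the small subunit (53.8%) were alike in this share but not in each core. The NRF1 core was held by 7 of 40 large and 1 of 26 small subunit genes. For the ETS core the shares were 32.5% large and 42.3% small, and for the YY1 core 15% large and 23.1% small. Members with and without a core had close medians for ETS and YY1, and medians further apart for NRF1. The median difference was -0.42 in the 24 members with the ETS core and -0.38 in the 42 without it. It was -0.38 with the YY1 core and -0.39 without it, and -0.23 in the 8 members with the NRF1 core and -0.45 in the 58 without it. The ranges overlapped almost fully for the ETS core, from -1.09 to 0.31 with it and from -1.34 to 0.27 without it. For the other 2 cores the range with the core was narrower, over fewer genes. With the YY1 core it ran from -0.54 to 0.31, and without it from -1.34 to 0.27. With the NRF1 core it ran from -0.65 to -0.06, and without it from -1.34 to 0.31. The split seen in the 4 printed stretches did not extend to other genes at the ends. Mrps25 and Mrps9, also above 0, held none of the 3 cores, while Mrps21, at -1.09, held the ETS core. A match of letters is a description and does not show a bound factor.

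The large and the small subunit were shifted by nearly the same amount. The median difference was -0.39 over the 46 large subunit genes and -0.36 over the 29 small subunit genes, so that the large minus the small median was -0.03. Values below 0 were found in 44 of 46 large and 26 of 29 small subunit genes. At 1.5-fold, 14 large and 7 small subunit genes were lower. The small subunit was the more spread. Its differences ran from -1.34 to 0.27 with an SD over genes of 0.40, against -1.18 to 0.31 with an SD of 0.30 in the large subunit. The quartiles lay about equally far apart in both, with an interquartile range of 0.42 in the small and 0.44 in the large subunit. Without Mrps36 the SD of the small subunit was 0.36, and without Mrpl55 that of the large subunit was 0.28. These SDs describe variation between genes and hold no error of the housing.

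Names and structure do not fully match in this family. Mrps30 and Mrps18a carry names of the small subunit, but in solved mammalian mitoribosome structures they belong to the large one. Mrps30 differed by -0.43 and Mrps18a by -0.51. With both moved to the large subunit and Mrps36 left out, the medians were -0.42 over 48 large and -0.24 over 26 small subunit genes, a gap of -0.18. The order of the SDs stayed as before, 0.37 in the small and 0.30 in the large subunit. The gap between the subunits was thus set in part by 3 genes, and it changed sign to 0.06 when each gene was represented by its brightest probe.

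**Figure D2:**
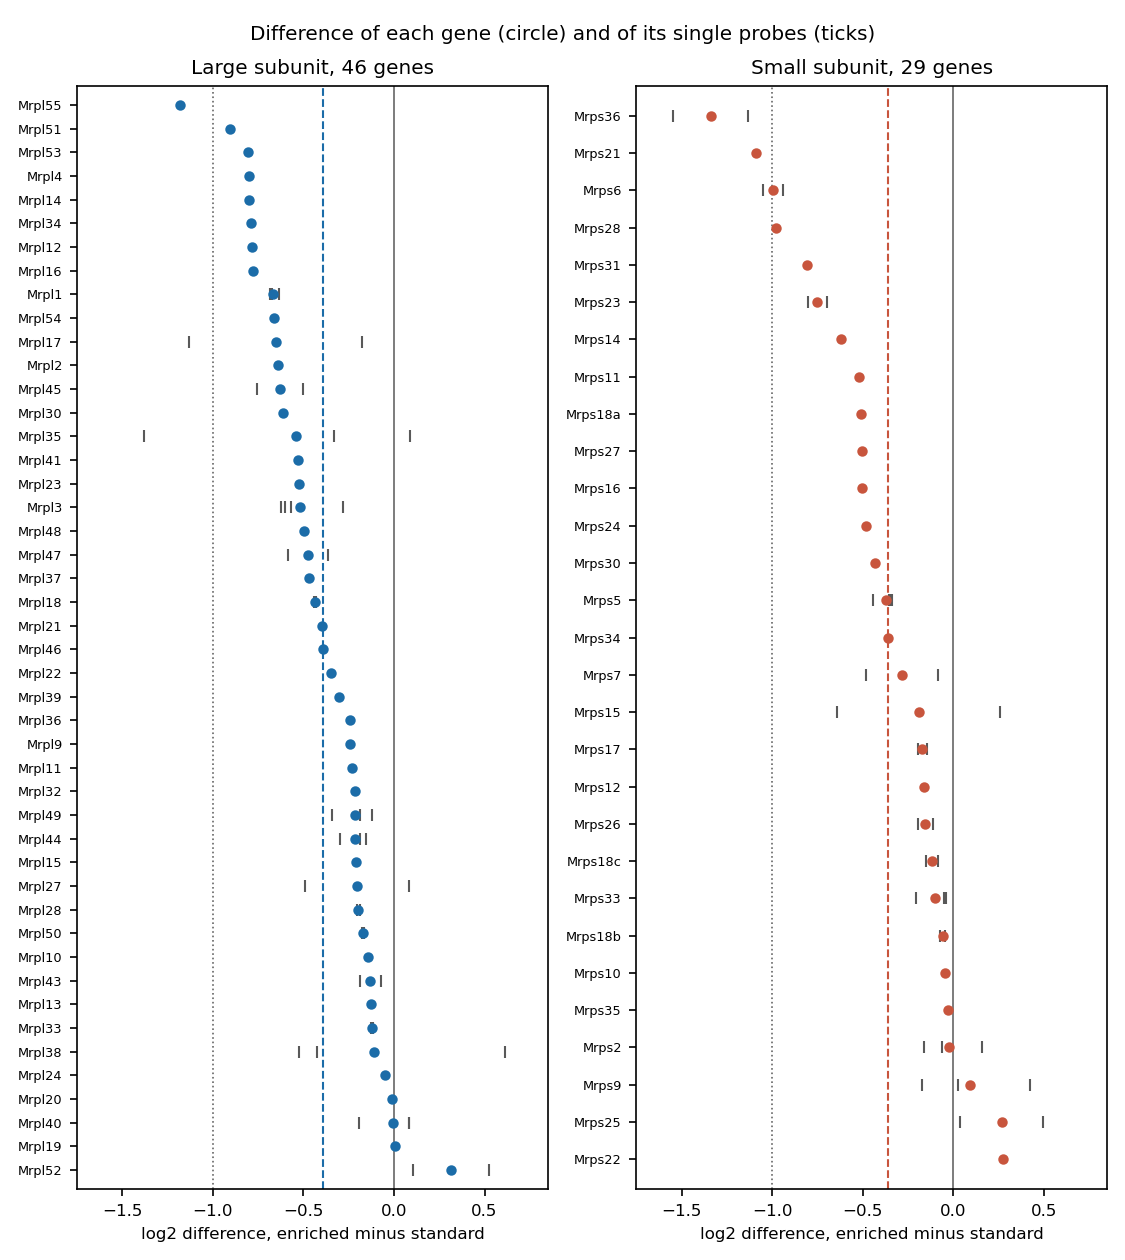
Log2 difference, enriched minus standard, of each gene (circle) and of each of its probes where it has several (ticks), ordered within the large and the small subunit, with the subunit median as a dashed line and the 2-fold threshold as a dotted line. Circles lie left of 0 for 44 of 46 large and 26 of 29 small subunit genes, and the probes of Mrpl35 and Mrpl38 are the most spread.

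In the large subunit, several proteins of known position were compared. Mrpl12, which forms the flexible stalk that recruits translation factors, was at 2.76 in the enriched and 3.54 in the standard environment pool, a difference of -0.78. Mrpl10, which anchors that stalk, was at 0.59 in the enriched and 0.73 in the standard environment pool, a difference of -0.15. The 2 stalk genes thus differed in the same direction by unequal amounts. Mrpl3, which reaches towards the peptidyl transferase centre, differed by -0.52 over 4 probes that were all below 0. Mrpl45, which lies by the exit tunnel and tethers the ribosome to the inner membrane, differed by -0.63, and Mrpl44, a relative of RNase III, by -0.21. Mrpl41, a protein found only in the mitochondrial ribosome, differed by -0.53.

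After Mrpl55 the lowest large subunit genes lay close together. Mrpl51 was at 4.35 in the enriched and 5.26 in the standard environment pool, a difference of -0.91. Mrpl53, Mrpl4, Mrpl14, Mrpl34, Mrpl12 and Mrpl16 followed between -0.81 and -0.78. This group mixed descendants of bacterial proteins (Mrpl4, Mrpl14, Mrpl34, Mrpl12, Mrpl16) with proteins that only mitochondria have (Mrpl51, Mrpl53). Mrpl1 and Mrpl54 at -0.67, Mrpl2 at -0.64 and Mrpl30 at -0.62 were also past 1.5-fold. The middle of the subunit was held by Mrpl23 and Mrpl48, at -0.52 and -0.50, then Mrpl47, Mrpl37, Mrpl18, Mrpl21, Mrpl46, Mrpl22 and Mrpl39, running from -0.48 to -0.30. Mrpl36, Mrpl9, Mrpl11, Mrpl32, Mrpl49, Mrpl15, Mrpl28, Mrpl50, Mrpl43, Mrpl13 and Mrpl33 lay between -0.24 and -0.12. These sizes are near or below 0.20, the median error of a difference by the scanning software. Set against each gene's own error, Mrpl43, Mrpl13 and Mrpl33 of this group lay within it and the others beyond it. At the other end, Mrpl20 and Mrpl40 both differed by -0.01, Mrpl24 by -0.05, and Mrpl19 was equal in both pools at 0.06, a difference of 0.00. Apart from Mrpl19, the sole large subunit gene above 0 was Mrpl52. It was at 1.83 in the enriched and 1.52 in the standard environment pool, a difference of 0.31 or 1.24-fold higher. Its probes did not tell the same story, since 2 gave 0.10 and 0.52, and another one, left out because it was not well above background on the enriched environment array, was lower there. With that probe included, the difference of Mrpl52 was -0.51.

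In the small subunit, Mrps12, the protein of the decoding centre, was at 3.04 in the enriched and 3.20 in the standard environment pool, a difference of -0.16. Mrps5 differed by -0.37, Mrps16 by -0.50 and Mrps27, a pentatricopeptide repeat protein, by -0.51. After Mrps36, Mrps21, Mrps6 and Mrps28, the lowest were Mrps31 with -0.81, Mrps23 with -0.75 and Mrps14 with -0.62. Mrps11 differed by -0.52, Mrps24 by -0.48, Mrps34 by -0.36 and Mrps7 by -0.28. Mrps17, Mrps26 and Mrps33 lay between -0.17 and -0.10. At the other end, Mrps10 differed by -0.04, Mrps35 by -0.03 and Mrps2 by -0.02. The 3 small subunit genes above 0 were Mrps22, Mrps25 and Mrps9. Mrps22, in which mutations cause a respiratory chain deficiency in humans, was at 0.92 in the enriched and 0.65 in the standard environment pool, a difference of 0.27. Mrps25 was at -0.44 in the enriched and -0.71 in the standard environment pool, also a difference of 0.27, with probes at 0.04 and 0.49. Mrps9 differed by 0.09, with 1 of its 3 probes below 0.

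The paralogues of the bacterial small subunit protein from which the Mrps18 genes descend were not alike. Mrps18a, whose product sits in the large subunit, was at 2.18 in the enriched and 2.69 in the standard environment pool, a difference of -0.51. Mrps18b, a protein of the small subunit, was at -2.09 in the enriched and -2.03 in the standard environment pool, a difference of -0.06. Mrps18c, which holds the place of the bacterial protein in the small subunit, was at 2.37 in the enriched and 2.49 in the standard environment pool, a difference of -0.12. The last 2 differences are smaller than the median technical error of a difference given below.

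The members were also split by descent, from textbook knowledge of the human mitoribosome and without a reference table. Mrps18a and Mrps18b were counted as mitochondria-specific, although they are paralogues of a bacterial-type protein, and Mrps36 was left out. The median was -0.39 over 46 proteins with a bacterial homologue and -0.33 over 28 mitochondria-specific proteins. Within the large subunit by structure, the medians were -0.42 over 30 homologues and -0.41 over 18 mitochondria-specific proteins. Within the small subunit they were -0.33 over 16 homologues and -0.13 over 10 mitochondria-specific proteins, of which 8 were below 0. These 10 include both Mrps22 and Mrps25 at the top and Mrps31 and Mrps23 near the bottom, so that their range, from -0.81 to 0.27, covers most of that of the whole family.

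The technical error could be gauged within the arrays only. The error that Feature Extraction gives for the processed intensities corresponded to a median of 0.20 for a member's difference, with a range of 0.10 to 0.20. The difference was larger than this error in 58 of the 75 genes, 55 of them lower and 3 higher in the enriched environment pool. The matching share of all measured genes was not computed. Without that share, the count of 58 cannot be called particular to the members. The quartiles of all measured genes, -0.40 and 0.38, also lie beyond 0.20. Probes of the same gene offer a second gauge. Of the 31 members with several measured probes, 24 had all of them on 1 side of 0, and the median SD between probes was 0.11, against 0.18 over all measured genes. The remaining 7 were Mrpl27, Mrpl35, Mrpl38, Mrpl40, Mrps2, Mrps9 and Mrps15. With genes of 1 probe counted too, 68 of 75 members and 18396 of 20261 measured genes had no divided probes. The share among all genes with several probes was not computed. Mrpl35 was the most divided, with probes at -1.38, -0.33 and 0.09, followed by Mrpl38 with -0.52, -0.42 and 0.61. The probes of Mrpl17 shared a side but lay apart, at -1.13 and -0.18. Over the 120 measured probes, the 105 that carry a RefSeq mRNA accession had a median difference of -0.35 with 10 above 0, and the 15 others had a median of -0.15 with 5 above 0. Members with 1 measured probe had a median of -0.49 over 44 genes, and members with several had -0.20 over 31 genes.

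The mitoribosome also holds proteins without an Mrpl or Mrps name in the files, and 6 of 7 listed ones were on the array under the names used. All 6 were below 0, with a median of -0.34. Dap3, a GTP-binding protein of the small subunit, was at 0.11 in the enriched and 0.70 in the standard environment pool, a difference of -0.60. Chchd1 differed by -0.45 and Aurkaip1 by -0.35. These 6 genes, which the naming rule missed, had nearly the same median as the members. Among them, Ict1 and Mrp63 are Mrpl58 and Mrpl57 under current symbols. The rule also missed Mrpl42, named D10Ertd322e in the files, which is not among the 6 and differed by -1.06.

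By their medians, the factors that build and serve the mitoribosome were less shifted. Of the listed names, 17 of 30 assembly factors, 13 of 17 translation factors and 12 of 17 tRNA synthetases were measured. The 17 measured assembly factors had a median of -0.16, with 13 below 0, none 2-fold lower, and Mtg1, a GTPase that acts late in assembly of the large subunit, the lowest at -0.96, before Nsun4 at -0.65 and Tfb1m at -0.59, which modify the small subunit's rRNA. The 13 translation factors had a median of -0.22, with 10 below 0. Their lower quartile, -0.73, lay below that of the members, -0.62. Gfm1, the elongation factor that moves the ribosome along the mRNA, was at -1.14 in the enriched and 0.30 in the standard environment pool, a difference of -1.45 and the sole member of that list to be 2-fold lower. Gfm2, which recycles the ribosome after a protein is finished, differed by -0.95, and Guf1 by -0.76. The 12 mitochondrial tRNA synthetases were not shifted as a list, with a median of 0.04 and 6 genes on each side of 0. Lars2 was the highest of them at 0.77, followed by Vars2 at 0.70, and Iars2 the lowest at -0.32. The value of Lars2 rests on 1 probe, at 8.37 in the enriched and 7.60 in the standard environment pool. Of the genes that transcribe mitochondrial DNA, the 3 measured were below 0, Tfb2m at -0.42, Tfam at -0.16 and Polrmt at -0.13.

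**Figure D3:**
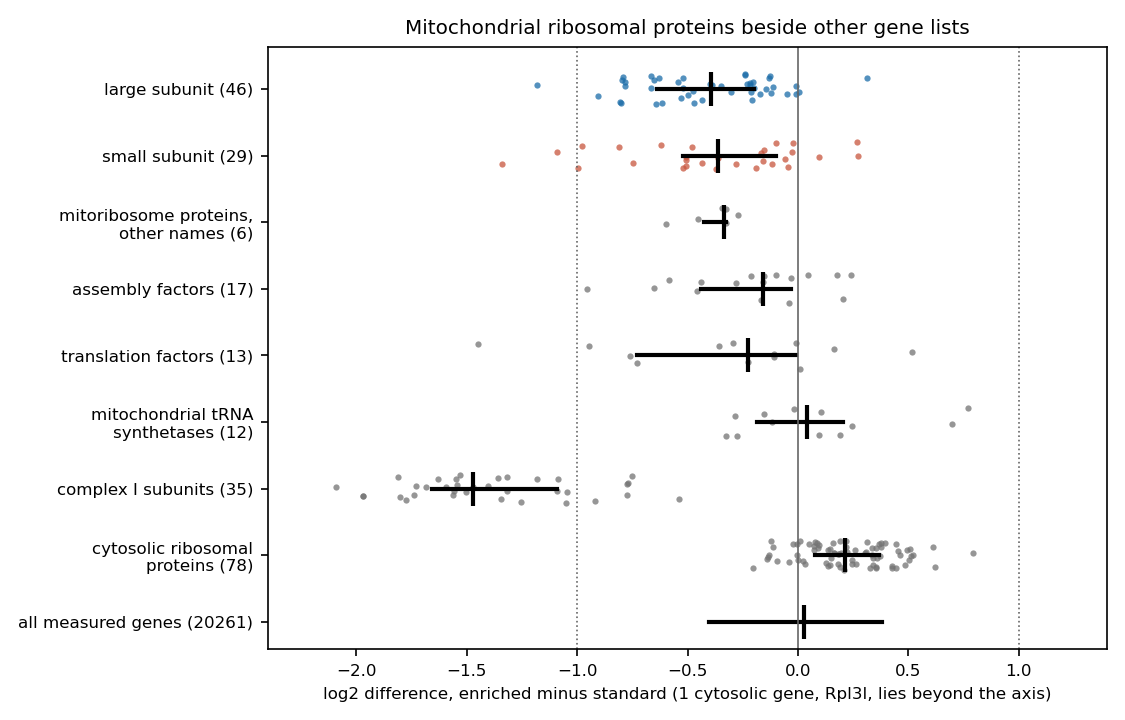
Log2 difference, enriched minus standard, of single genes (points) with the median (vertical bar) and the quartiles (horizontal bar) of each list, the number of measured genes in brackets, and dotted lines at 2-fold. The 2 subunits lie between complex I, whose median is -1.47, and the cytosolic ribosomal proteins, whose median is 0.21.

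The shift of the mitochondrial ribosomal proteins was much smaller than that of complex I of the respiratory chain. The 35 measured nuclear subunits of complex I, the first enzyme of the chain, had a median difference of -1.47, and 29 of them were lower by at least 2-fold. The least shifted complex I gene, Ndufa3, had a difference of -0.54, which is lower than the median of the members. Complex I made up 0.747% of the signal in the enriched and 1.76% in the standard environment pool. The ribosomal proteins of the cytosol lay on the other side of 0. Of 78 measured genes, 66 were above 0, with a median of 0.21, and the member median was lower than theirs by 0.58. The single cytosolic gene at least 2-fold lower was Rpl3l, the paralogue of Rpl3 expressed in striated muscle, with levels of -4.68 in the enriched and 3.46 in the standard environment pool. Rpl3 itself was at 5.05 in the enriched and 4.53 in the standard environment pool, a difference of 0.52. No member of the mitochondrial family came near the difference of -8.14 of Rpl3l.

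Markers of several cell types moved between the same pools. All 10 measured of 11 listed skeletal muscle markers were lower in the enriched environment pool, with a median difference of -8.07 and differences from -8.56 to -3.08. They made up 0.092% of the signal in the enriched and 3.32% in the standard environment pool. The 4 brown adipocyte markers were lower by a median of -4.36 and the 4 erythroid markers by -5.74, while the 6 measured carcinoma epithelium markers were higher by 1.59 to 2.43 and the 5 proliferation markers by a median of 0.92. The fibroblast list was divided, with a median of 1.08. Its collagen genes Col1a1, Col1a2 and Col3a1 were higher by 1.76 to 2.96, while Dcn differed by -1.03 and Pdgfra by -1.02. Medians were 0.34 for leukocyte and -0.76 for endothelial markers. By the filter used, a marker counted as measured only with a probe well above background on both arrays. Some were still dim in the enriched environment pool, such as Ucp1 at -4.70, Actn2 at -4.60 and Slc4a1 at -4.45. The lowest level above background on that array was -6.20. Muscle and brown fat are tissues rich in mitochondria. The part of any of these cell types in the lower levels of mitochondrial ribosomal protein transcripts was not tested, and in pooled tissue RNA fewer cells of a type and less RNA per cell cannot be told apart.

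The size of the shift depended on how the arrays were scaled. When each array was scaled to its mean signal, the median over all measured genes was 0.21 in place of 0.03, and that of the 75 members was -0.19, with 52 of them below 0. Under that scaling 18 members changed side and lay between 0.01 and 0.17. They were Mrpl10, Mrpl13, Mrpl20, Mrpl24, Mrpl33, Mrpl38, Mrpl40, Mrpl43, Mrpl50, Mrps2, Mrps10, Mrps12, Mrps17, Mrps18b, Mrps18c, Mrps26, Mrps33 and Mrps35. The members' median minus that of all genes was -0.40 and is the same by construction under any scaling of a whole array. It was -0.27 with normexp background and -0.26 without the filter on dim probes. Both subunit medians stayed below 0 under every way of processing that was run.

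**Figure D4:**
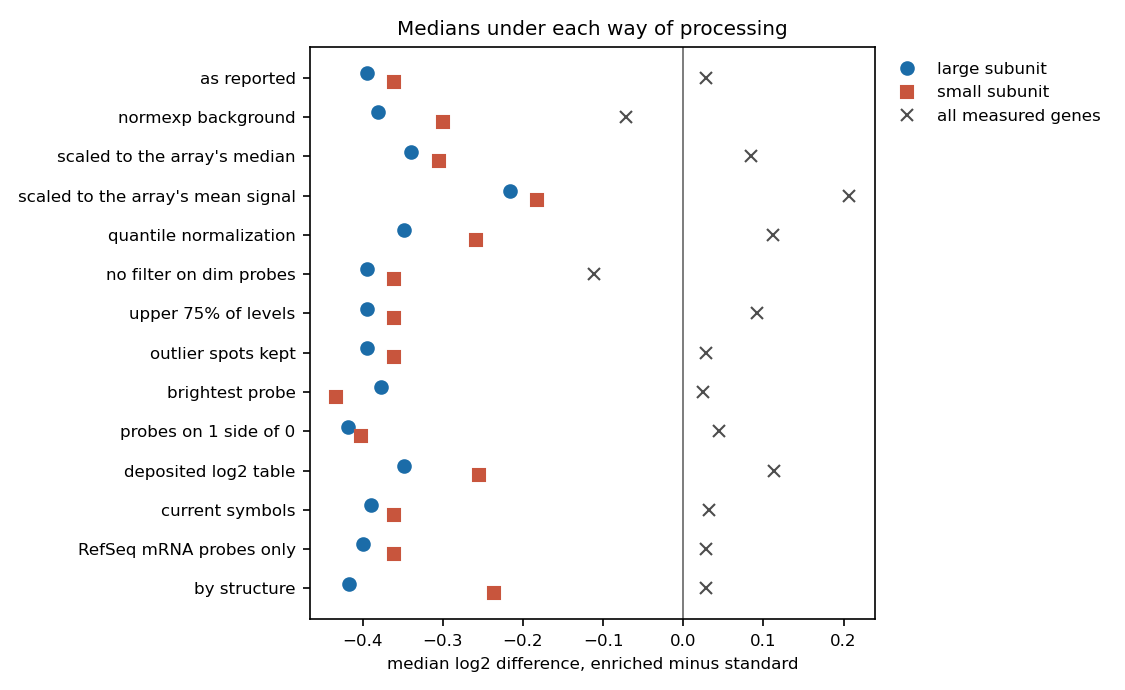
Median log2 difference, enriched minus standard, of the large subunit (circles), the small subunit (squares) and all measured genes (crosses), 1 row for each way of processing. The subunit medians lie between -0.43 and -0.18 in every row, while the median of all genes moves between -0.11 and 0.21.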

How the data were processed

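Per the labels' protocols, RNA of 6 tumours per housing was pooled, and each pool was labelled with Cy3 for 1 Agilent array. The deposited scanner files hold a processed intensity for each spot. The submitters' processing notes name version 10.7.1.1 of Agilent Feature Extraction. The headers place both arrays on 1 slide and in 1 scan. A deposited log2 table with 30319 probes served as an alternative: its columns followed log2 of the scanner intensity (r = 1.00) with medians of 8.56 (enriched) and 8.54 (standard), and its scaling and centring are not given in the sources used here.

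Control spots (1639 per array) and outlier spots (70 enriched, 66 standard) were left out. Values were log2 processed intensity minus the array's 75th percentile (984 enriched, 753 standard). Probes well above background on both arrays, 120 of 125 for the members, were averaged per gene, and none was saturated. Background correction by the software changes dim spots most. Gene names are the files' own; a match of RefSeq accessions to GRCm38.p6 renamed no member. Promoters are from RefSeq. Each housing had 1 array, so there is no p-value, and genes were counted at 2-fold and 1.5-fold. Named were members at least 2-fold apart, the 6 lowest and 6 highest of each subunit, those above 0 or with divided probes, and 16 by role, with all other members in groups. The 3 genes furthest from 0 were named for other mitoribosome proteins, assembly factors, translation factors, tRNA synthetases and mitochondrial transcription. Genes of complex I, the cytosolic ribosome, the 2-oxoglutarate dehydrogenase complex and the cell type markers were named outside this rule. Members and lists were chosen with earlier results of these data known. Protein length was not analysed. The steps from spots to gene differences, at the main settings, were tested on simulated data, and the other steps were not. Tools were Python 3.11.15, pandas 2.3.3, scipy 1.17.1, and limma 3.58.1 in R 4.3.3 for normexp (offset 50).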

Additional observations from a re-analysis of the deposited data

How the results depend on the processing

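Over 13 alternatives (background correction, scaling, filters on dim or outlying spots, choice of probes, the deposited log2 table, current symbols, subunits by structure and, added after seeing the data, RefSeq mRNA probes only), the median of all members lay between -0.42 and -0.19, that of the large subunit between -0.42 and -0.22 and that of the small subunit between -0.43 and -0.18. Scaling to the mean signal moved these medians by more than the median SD between probes of a gene, 0.18, to -0.19, -0.22 and -0.18. The SD over genes stayed between 0.29 and 0.31 in the large and between 0.37 and 0.41 in the small subunit, and 52 to 73 members were below 0. The count at least 2-fold lower was 2 to 4. Mrps21 left it when scaled to the mean signal, Mrps6 joined with the brightest probe, and Mrpl42, named D10Ertd322e in the files, joined under current symbols with -1.06. Over all genes the count at least 2-fold lower was 1940, against 1302 with normexp background and 3726 without the filter on dim probes. Of 892 recomputed differences of the 75 members, 787 moved by less than 0.18. Besides the 18 members that changed side under scaling to the mean signal, 6 did so under scaling to the median (up to 0.05), 6 under quantile normalization (up to 0.19), 5 in the deposited log2 table (up to 0.19) and 2 with normexp background (up to 0.06). Without the dim filter Mrpl41 was at 0.21, Mrps18b at 0.17 and Mrpl52 at -0.51. With the brightest probe Mrpl35 was at 0.09 and Mrpl40 at 0.08. With RefSeq mRNA probes only, Mrps9 was at -0.07 and Mrps2 at 0.05. The median of the mitochondria-specific small subunit proteins was 0.05 and those of the assembly factors and the transcription genes both 0.02 under scaling to the mean signal. No paired analysis was possible because each housing had 1 array. Signal over background limited 5 of 125 member probes.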
